A study of Cricetulus griseus with 16 samples.

Results

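The 9 genes described here, Etv4, Etv5, Spry1, Spry2, Spry4, Spred1, Spred2, Phlda1 and Myc, are known transcriptional outputs or feedback inhibitors of the ERK pathway. They were found by gene name among the 20824 genes of the count table, and all 9 were present, each with more than 3 counts in at least 1 library. Their identifiers were ENSCGRG00001023226 (Etv4), ENSCGRG00001021130 (Etv5), ENSCGRG00001009131 (Spry1), ENSCGRG00001006571 (Spry2), ENSCGRG00001006586 (Spry4), ENSCGRG00001013046 (Spred1), ENSCGRG00001015924 (Spred2), ENSCGRG00001012896 (Phlda1) and ENSCGRG00001016978 (Myc). The genes were chosen by their role in the pathway and because the level of Etv5 in these libraries was lower after 6 h than after 1 h at 40 °C, so Etv5 is described without a test wherever 40 °C libraries enter, and no member was tested between the 40 °C durations. RNA came from CHO cells (ATCC CCL-61), an established Chinese hamster ovary line, which were kept at 37 °C without treatment or were heated to 40 °C for 1 h, to 40 °C for 6 h or to 42.5 °C for 1 h. Each of the 4 groups had 4 replicates, A to D, and all groups shared the same line and serum-containing medium. The study asked which pathways accompany different doses of heat.

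The ERK pathway carries signals from growth factor receptors through RAS and the kinases RAF, MEK and ERK to the nucleus. ETV4 and ETV5 are ETS-family transcription factors that are induced by ERK activity. Sprouty (SPRY) and SPRED proteins are made in response to the pathway and restrain it upstream of ERK, which forms negative feedback. PHLDA1 is a pleckstrin homology-like protein induced by growth factors and stress, and MYC is a growth-promoting transcription factor whose mRNA is short-lived and whose protein is stabilised by ERK phosphorylation.

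The libraries held between 10504192 and 14668365 counts. A floor of 3 counts corresponded to 0.205 to 0.286 CPM (read counts scaled to library size), which covers counting error only. The study left 1 control library out as inconsistent with its group. In these counts 37 °C replicate D stood apart, with Pearson's r across genes of 0.974 to 0.977 with replicates A, B and C against 0.995 to 0.996 among those, and it was left out of the main comparisons, so 15 of the 16 libraries were used. The heat shock genes Hsph1, Dnajb1 and Hspb1 rose in all 3 comparisons with 37 °C, while Hspa8, also listed, was not matched by name. Of the marker genes, mesenchymal Vim had group means of 2013 to 2330 CPM and Fn1 of 332 to 421 CPM, while Cdh2 and Col1a1 had at most 8 counts in any library used. The epithelial marker Epcam, the leukocyte marker Ptprc and the endothelial marker Cdh5 had at most 1 count in any library used, Pecam1 had at most 4, and epithelial Cdh1 had group means of 1.80 to 2.92 CPM. Epithelial Krt8 and Krt18 and leukocyte Cd68, also listed, were not matched by name, so their levels are not known here.

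Etv5 was the member with the largest difference after prolonged mild heat. It stood at 21.9, 20.8 and 21.9 CPM in 37 °C replicates A, B and C, and at 19.6, 20.9, 20.5 and 19.0 CPM after 1 h at 40 °C. After 6 h at 40 °C it stood at 11.0, 8.96, 11.0 and 10.5 CPM, below every library of the other groups. At 42.5 °C for 1 h it stood at 21.1, 19.9, 23.6 and 19.7 CPM, which overlaps the 37 °C libraries. Group means were 21.5 ± 0.621 CPM (SD, n = 3) at 37 °C, 20.0 ± 0.883 (n = 4) after 1 h at 40 °C, 10.4 ± 0.957 (n = 4) after 6 h and 21.1 ± 1.81 (n = 4) at 42.5 °C. The log2 fold change was -0.95 between 6 h and 1 h at 40 °C, the difference for which the gene was chosen, and -1.06 between 6 h and 37 °C. These values rest on 113 to 311 counts per library. In the comparison of 42.5 °C with 37 °C, which the choice did not use, Etv5 had a log2 fold change of -0.04 and an SE of 0.08, which did not pass (adjusted p = 0.706). Unless DESeq2 is named, adjusted p values come from edgeR's quasi-likelihood test, with Benjamini-Hochberg adjustment over all genes tested. In bulk RNA a lower CPM cannot tell fewer expressing cells from less RNA per cell.

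Etv4, the close relative of Etv5, was also lowest after 6 h at 40 °C. Its levels were 365, 318 and 313 CPM at 37 °C, 360, 320, 313 and 299 CPM after 1 h at 40 °C, 280, 241, 237 and 225 CPM after 6 h, and 345, 289, 317 and 291 CPM at 42.5 °C. All 4 libraries of the 6 h group lay below all libraries of the other groups. Etv4 fell by 0.44 on the log2 scale in 6 h against 37 °C (adjusted p = 0.000155, SE 0.07), and it was higher by 0.33 at 42.5 °C than after 6 h at 40 °C (adjusted p = 0.000546, SE 0.07). After 1 h it differed from 37 °C by -0.04 at 40 °C (adjusted p = 0.834, SE 0.06) and by -0.10 at 42.5 °C (adjusted p = 0.188, SE 0.06). The smaller size of the Etv4 difference, against that of Etv5, was not tested.

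**Figure D1:**
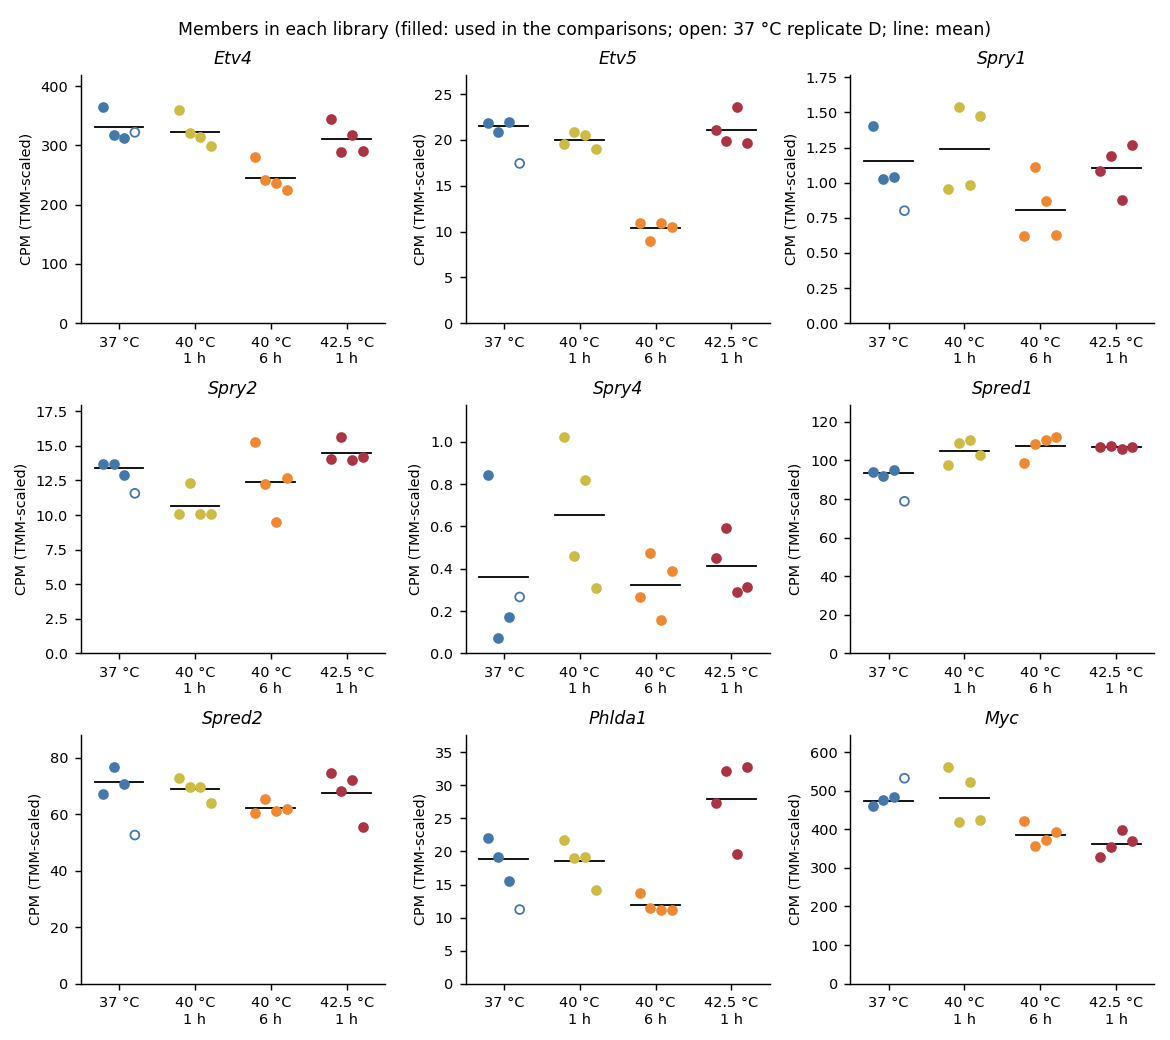
Level of each of the 9 genes in every library, in CPM scaled by TMM (vertical axis, from 0, own range per gene), by treatment group; filled points are libraries used in the comparisons, open points are 37 °C replicate D and lines are group means. Etv5 in the 40 °C 6 h libraries lies between 8.96 and 11.0 CPM, below all other libraries, whereas Phlda1 is highest on average at 42.5 °C.

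The Sprouty genes encode inhibitors of receptor tyrosine kinase signaling, and none of those tested passed the test after 6 h at 40 °C. Spry2 had 13.7, 13.7 and 12.9 CPM at 37 °C and 10.1, 12.3, 10.1 and 10.1 CPM after 1 h at 40 °C. All libraries of the 1 h group lay below the 37 °C libraries, but the log2 fold change of -0.34 (SE 0.10) did not pass the test (adjusted p = 0.114). Spry2 had 15.3, 12.2, 9.48 and 12.7 CPM after 6 h at 40 °C, which overlaps 37 °C (log2 fold change -0.12, SE 0.12, adjusted p = 0.483). At 42.5 °C it had 14.0, 15.6, 14.0 and 14.2 CPM, higher by 0.44 on the log2 scale than after 1 h at 40 °C (adjusted p = 0.00243, SE 0.10), with no overlap of the libraries. Against 37 °C the 42.5 °C libraries also did not overlap, yet the difference of 0.10 (SE 0.09) did not pass (adjusted p = 0.400).

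Spry1 and Spry4 were close to the limit of detection. Spry1 had 7 to 20 counts per library used and group means of 1.16 ± 0.217 CPM at 37 °C (SD, n = 3), and 1.24 ± 0.313, 0.806 ± 0.234 and 1.10 ± 0.169 CPM after 1 h at 40 °C, 6 h at 40 °C and 1 h at 42.5 °C (n = 4 each). Its difference of -0.52 between 6 h and 37 °C (SE 0.30) did not pass (adjusted p = 0.206). Spry4 had 1 to 15 counts per library used. It passed the filter on low counts in the comparison of 40 °C 1 h with 37 °C alone, where the log2 fold change of 0.79 had an SE of 0.59 (adjusted p = 0.584). Of the 37 °C libraries, A had 12 counts, B had 1 and C had 2, and the value moved to 2.39 without replicate A, 0.29 without replicate B and 0.50 without replicate C. A difference of Spry4 was not detectable at this depth.

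The SPRED genes, which restrain RAS activation at the membrane, went in opposite directions after 6 h. Spred1 had 94.0, 91.7 and 95.2 CPM at 37 °C and was higher in every heated library used, at 97.9, 109, 111 and 103 CPM after 1 h at 40 °C, 98.5, 109, 111 and 112 CPM after 6 h and 107, 108, 106 and 107 CPM at 42.5 °C. It rose by 0.20 on the log2 scale after 6 h (adjusted p = 0.0107, SE 0.05) and by 0.19 at 42.5 °C (adjusted p = 0.00218, SE 0.04), while 0.17 after 1 h at 40 °C did not pass (adjusted p = 0.117, SE 0.05). Both were under 1.5-fold. Control replicate D, not used, had 78.8 CPM. Spred2 had 67.1, 76.5 and 70.8 CPM at 37 °C and 60.5, 65.4, 61.1 and 61.8 CPM after 6 h at 40 °C, where it fell by 0.20 (adjusted p = 0.0145, SE 0.06) with no overlap of the libraries. Both calls at 6 h depended on the control libraries. With all 4 control libraries Spred1 had a larger log2 fold change of 0.25 (adjusted p = 0.0654) and Spred2 a smaller one of -0.11 (adjusted p = 0.551). Without 37 °C replicate B they stood at 0.19 (adjusted p = 0.0518) and -0.14 (adjusted p = 0.129). Spred2 had 72.6, 69.5, 69.7 and 64.0 CPM after 1 h at 40 °C and 74.6, 68.0, 72.0 and 55.4 CPM at 42.5 °C, and neither group passed the test against 37 °C.

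Phlda1 was the member that moved both ways. It had 22.0, 19.2 and 15.6 CPM at 37 °C and 21.7, 19.0, 19.2 and 14.2 CPM after 1 h at 40 °C. After 6 h at 40 °C it had 13.7, 11.5, 11.1 and 11.2 CPM, below every other library used, and it fell by 0.69 on the log2 scale against 37 °C (adjusted p = 0.000354, SE 0.12). Control replicate D, not used, had 11.2 CPM, and the call was lost with all 4 control libraries (log2 fold change -0.53, adjusted p = 0.0993). At 42.5 °C it had 27.3, 32.1, 19.6 and 32.7 CPM and rose by 0.55 (adjusted p = 0.00624, SE 0.14), with library C inside the range of the controls. Between the heated groups, Phlda1 was higher at 42.5 °C than after 1 h at 40 °C by 0.59 (adjusted p = 0.00447, SE 0.14) and than after 6 h at 40 °C by 1.24 (adjusted p = 1.27e-06, SE 0.13), the largest tested difference of any member.

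Myc was lower after both the long mild and the short moderate treatment. It had 460, 475 and 485 CPM at 37 °C, 560, 419, 523 and 424 CPM after 1 h at 40 °C, 421, 356, 372 and 393 CPM after 6 h, and 329, 353, 397 and 369 CPM at 42.5 °C. It fell by 0.30 on the log2 scale after 6 h at 40 °C (adjusted p = 0.000541, SE 0.05) and by 0.39 at 42.5 °C (adjusted p = 2.7e-05, SE 0.05), without overlap with the controls used. The 42.5 °C libraries were also below those of 1 h at 40 °C, with a log2 fold change of -0.42 (adjusted p = 0.00102, SE 0.08), and differed from those of 6 h by -0.10 (adjusted p = 0.183, SE 0.06). Replicate D of the controls had 532 CPM, above the other controls.

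Read by comparison, no tested member changed after 1 h at 40 °C by the test used. 0 of 8 tested members passed at an adjusted p under 0.05, where 1.64% of the 10494 genes tested did. At an unadjusted p under 0.05, 2 members (Spry2 and Spred1) passed in edgeR, and DESeq2 also called 0 at an adjusted p under 0.05. The rule that adds a 1.5-fold limit was met by 0.334% of genes and by 0 members. The libraries did not overlap for 2 members, where 13.4% of genes did not overlap. The median log2 fold change was -0.0047 over the 8 members tested and 0.00 over all genes.

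After 6 h at 40 °C most tested members changed, and most of those were lower. 5 of 7 tested members passed the test, 4 lower (Etv4, Spred2, Phlda1 and Myc) and 1 higher (Spred1), where 29.4% of all genes tested passed, 14.8% as lower and 14.7% as higher. The choice of the members used the 6 h libraries and was made with earlier results of these data known. Counts of members in this comparison and in others with 40 °C libraries are therefore a description and give no independent support. With all 4 control libraries 2 members passed, Etv4 and Myc. Calls over all genes also fell in that setting, from 3091 to 1122, so the 29.4% does not apply to it. Phlda1 alone was also at least 1.5-fold apart, a rule that 3.11% of genes met, and it missed that rule with all 4 controls and without 37 °C replicate A (log2 fold change -0.56). Without Etv5, the 6 h and 37 °C libraries did not overlap for 5 of 8 members, where 36.2% of genes tested did not overlap. The 8 include Spry4, which did not pass the filter here and is also in the overlap counts of the other comparisons. The median log2 fold change was -0.30 over the 7 members tested, which leaves out Etv5, and 0.00 over all genes. The 3 comparisons with 37 °C share the same control libraries. When those were collected is not given in the sources used here, so heat and time in culture cannot be told apart in these comparisons.

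At 42.5 °C for 1 h the members went in both directions. 3 of 8 tested members passed, Spred1 and Phlda1 higher and Myc lower, where 43.1% of all genes tested passed, 20.8% as higher and 22.3% as lower, so the share of members was near the background. The libraries did not overlap for 3 members, where 45.9% of genes did not overlap. 0 members met the additional limit of 1.5-fold, by edgeR at an adjusted or an unadjusted p under 0.05 and by DESeq2, where 7.51% of genes met it with edgeR. Phlda1, at 0.55 against a limit of 0.585, met it in 3 of 14 alternatives, at 0.71 with all 4 controls, 0.67 without 37 °C replicate A and 0.69 without 42.5 °C replicate C. The median was -0.06 over the members and 0.00 over all genes.

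Between heated groups, 3 of 7 tested members passed in 42.5 °C against 40 °C for 1 h (Spry2 and Phlda1 higher, Myc lower), where 36.1% of genes passed, 16.4% as higher and 19.6% as lower. Phlda1 was the 1 member also past 1.5-fold there, where 5.27% of genes were. Its log2 fold change of 0.587 stood at the limit of 0.585 and fell short of it in 5 of 14 alternatives, among them 0.48 without 40 °C 1 h replicate D, 0.53 without 42.5 °C replicate B and 0.50 without 42.5 °C replicate D. Libraries did not overlap for 2 members against 34.1% of genes. In 42.5 °C against 40 °C for 6 h, 2 of 7 passed (Etv4 and Phlda1, both higher), where 47% of genes passed and 22.5% did so as higher. This comparison differs in both temperature and duration, which cannot be told apart in it. Phlda1 was again the 1 tested member past 1.5-fold, where 8.25% of genes were, and libraries did not overlap for 2 members other than Etv5, Etv4 and Phlda1, where 41.8% of genes did not overlap. The median log2 fold change there was 0.22 over the 7 members tested, and the untested Etv5 was higher by 1.02 on the log2 scale. Between 6 h and 1 h at 40 °C, given as a description only, 3 of 8 members were at least 1.5-fold apart, all lower after 6 h, and 2 of the 7 other than Etv5 were. Over all genes 1.81% were that far apart and 1.03% were lower, but the choice used this difference, so nothing is read from these shares. These were Etv5 at -0.95, Phlda1 at -0.65 and the low-count Spry1 at -0.60. The next members were Etv4 at -0.40 and Myc at -0.32, short of the limit of 0.585 on the log2 scale. Libraries did not overlap for 3 members (Etv4, Etv5 and Phlda1), 2 of them other than Etv5, where 21.3% of genes did not overlap, a share from which nothing is read either.

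**Figure D2:**
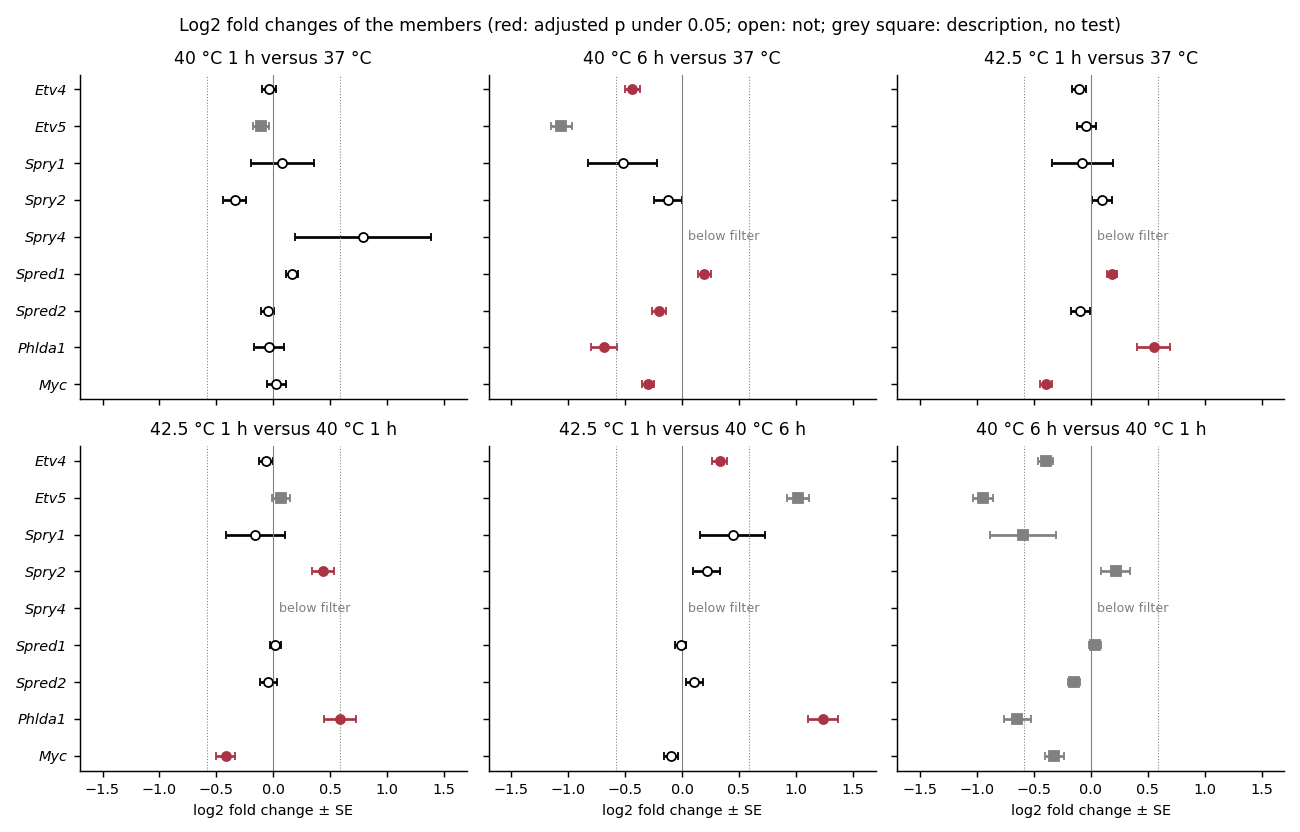
Log2 fold change ± SE of each member (horizontal axis) in the 6 comparisons; red points have an adjusted p under 0.05, open points do not, grey squares are descriptions without a test and dotted lines mark 1.5-fold. Etv5 sits at -1.06 in 40 °C 6 h against 37 °C and at -0.04 in 42.5 °C against 37 °C, and Phlda1 lies on opposite sides of 0 in the same comparisons.

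Most of the other known ERK outputs listed were lower after 6 h at 40 °C. Of 14 such genes listed, all were in the table and 12 were tested at 6 h against 37 °C (Fos and Epha4 did not pass the filter on low counts), and 10 fell and 0 rose, where 14.8% of all genes tested fell, with a median log2 fold change of -0.34. Egr1, an immediate early transcription factor, fell by 1.58 (adjusted p = 3.8e-08, SE 0.10), from a mean of 48.1 ± 5.82 CPM (SD, n = 3) to 16.2 ± 2.35 CPM (n = 4). Lif, a cytokine gene, fell by 0.68 (adjusted p = 2.23e-06, SE 0.07), and Dusp5, a phosphatase that inactivates nuclear ERK, fell by 0.61 (adjusted p = 6.2e-05, SE 0.08). The remaining 7 that fell, among them Dusp6, Fosl1, Etv1 and Ccnd1, changed by less than 1.5-fold, and the 2 that did not pass were Dusp4 and Ier3. Those under 1.5-fold are named after their values were seen. The list itself was written with earlier results of these data known, so its counts are a description and give no independent support. With all 4 control libraries 11 of the 12 still had log2 fold changes below 0, with a median of -0.29, but 3 passed the test (Egr1 at -1.53, Lif at -0.56 and Dusp5 at -0.62) in place of 10. Over all genes, calls in both directions fell from 3091 to 1122 in that setting. After 1 h at 40 °C, 1 of 13 tested rose (Lif, 0.42, adjusted p = 0.0302) and 1 fell (Egr1, -0.53, adjusted p = 0.00752), where 1.64% of all genes tested passed.

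At 42.5 °C, 4 of the 13 tested genes of this list rose and 3 fell against 37 °C, where 20.8% of all genes rose and 22.3% fell. Fos, an immediate early gene, rose from 0.599 ± 0.189 CPM (SD, n = 3) to 19.2 ± 2.65 CPM (n = 4), a log2 fold change of 4.95 (adjusted p = 1.91e-10, SE 0.21), and Egr1 rose by 2.03 (adjusted p = 3e-09, SE 0.11). At 5 to 11 counts per library at 37 °C, Fos passed the filter on low counts here only through the 42.5 °C libraries. Its place among the 4 that rose was therefore fixed by its entry. Of the 3 that fell, all by less than 1.5-fold, Dusp6 fell by 0.49 (adjusted p = 0.0262, SE 0.17) and is named after its value was seen. Against 6 h at 40 °C, 10 of 13 were higher at 42.5 °C and 1 was lower, where 22.5% of all genes were higher. The 10 include Fos, which at 4 to 15 counts per library after 6 h again entered through the 42.5 °C libraries. Fos and Egr1 rose at 42.5 °C against 37 °C, the comparison in which Etv4 and Etv5 did not pass the test.

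Upstream of the members, 2 ligand genes had large increases at 42.5 °C. The counts of the following lists can be read against 14.7% of all genes higher and 14.8% lower after 6 h at 40 °C, and 20.8% higher and 22.3% lower at 42.5 °C. Calls in these lists, and in those of the ETV regulators, other feedback inhibitors and MYC genes, were not rerun with all 4 control libraries. In that setting fewer genes passed over all genes. Of 23 growth factor ligands listed, 8 were tested and 3 rose at 42.5 °C, among them Areg by 4.83 (adjusted p = 5.08e-07, SE 0.42) and Hbegf by 1.72 (adjusted p = 2.37e-07, SE 0.14), both ligands of the EGF receptor. After 6 h at 40 °C 0 ligands rose and 2 fell, Hbegf at -0.27 (adjusted p = 0.0427, SE 0.10) and Hgf, the ligand of MET, at -0.30 (adjusted p = 0.0256, SE 0.10), both named after their values were seen. Egfr itself had at most 1 count in any library used. Of the receptor tyrosine kinases, 9 of 15 were tested, and 2 rose and 2 fell at 42.5 °C, none of them by 1.5-fold or more. Of the kinases and scaffolds from RAF to ERK, 8 of 11 were tested, with 2 higher and 3 lower at 42.5 °C and 0 higher and 1 lower after 6 h at 40 °C, again none by 1.5-fold. Among 14 adaptors and RAS genes tested, 4 rose and 3 fell after 6 h at 40 °C and 4 rose and 2 fell at 42.5 °C, where Frs3 fell by 1.83 (adjusted p = 0.000152, SE 0.29) and Frs2 rose by 0.62 (adjusted p = 4.33e-06, SE 0.07), both adaptors of FGF receptors. Downstream, of 13 ERK effector kinases and transcription factors tested, 2 rose and 3 fell after 6 h at 40 °C and 3 rose and 5 fell at 42.5 °C, none by 1.5-fold or more. Between heated groups, Igf1r, the receptor of IGF1, was higher at 42.5 °C than at 40 °C for 1 h (log2 fold change 0.64, SE 0.10, adjusted p = 9.8e-05) and for 6 h (0.75, SE 0.11, adjusted p = 3.5e-05), and Mknk2, a kinase activated by ERK, was lower than at 40 °C for 6 h (-0.73, SE 0.09, adjusted p = 3.83e-06).

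**Figure D3:**
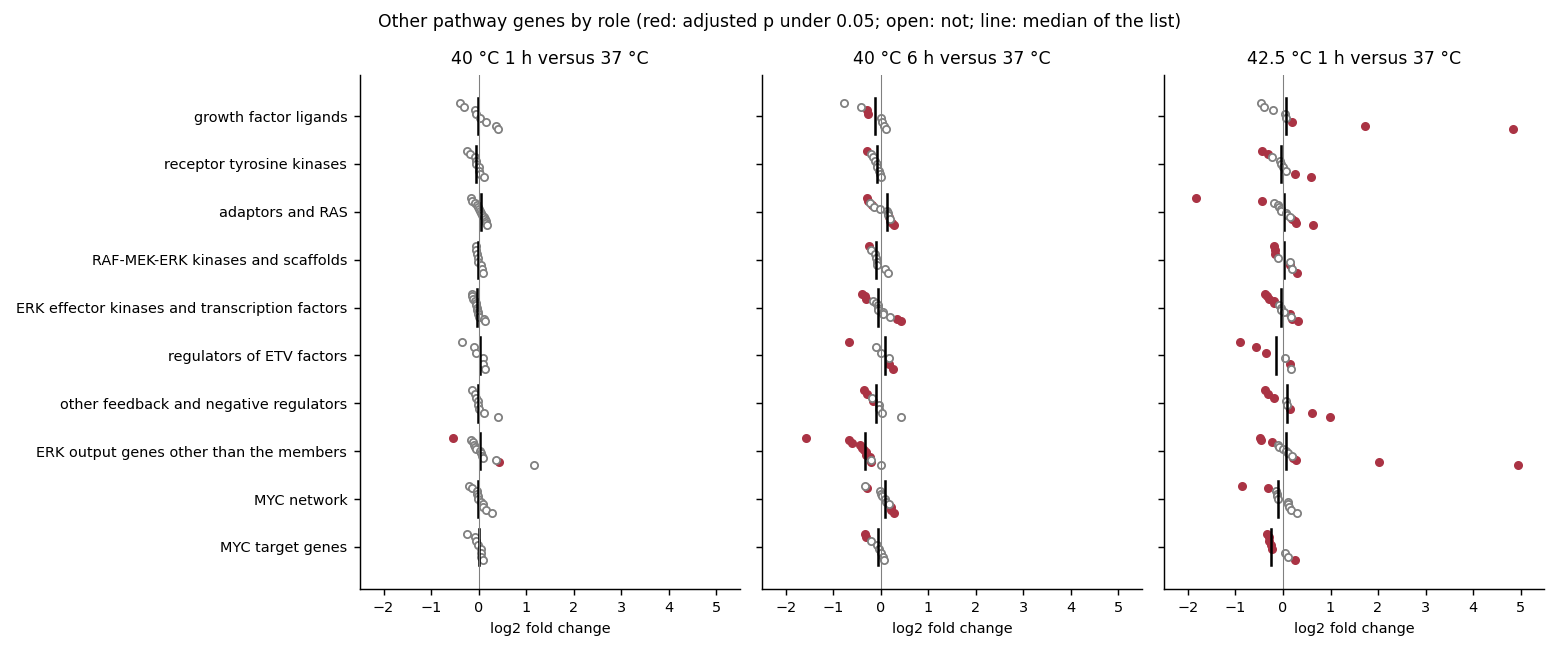
Log2 fold change (horizontal axis) of each tested gene of the ERK and MYC lists, by role, in the 3 comparisons with 37 °C; red points have an adjusted p under 0.05, open points do not and black lines are list medians. The other ERK output genes have a median of -0.34 in 40 °C 6 h, and Areg and Fos exceed 4 at 42.5 °C.

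Of 6 listed regulators of the ETV factors, all were tested, and 2 rose and 1 fell after 6 h at 40 °C while 1 rose and 3 fell at 42.5 °C, where 29.4% and 43.1% of all genes passed. Cic, the repressor that binds Etv genes and is inactivated by ERK, rose by 0.25 after 6 h at 40 °C (adjusted p = 0.008, SE 0.07) and fell by 0.57 at 42.5 °C (adjusted p = 4.73e-06, SE 0.06). Cop1, part of the ubiquitin ligase that degrades ETV proteins, rose by 0.18 after 6 h at 40 °C (adjusted p = 0.0184, SE 0.05) and by 0.14 at 42.5 °C (adjusted p = 0.0175, SE 0.04). Atxn1, a partner of CIC, was low, at 7 to 30 counts per library used, and fell by 0.67 after 6 h at 40 °C (adjusted p = 0.0427, SE 0.24) and by 0.91 at 42.5 °C (adjusted p = 0.0105, SE 0.26). Cic and Cop1 are named because of their role beside the Etv genes, after their values were seen, since neither met the 1.5-fold limit against 37 °C. Against 6 h at 40 °C, Cic had a log2 fold change at 42.5 °C of -0.83 (adjusted p = 1.05e-07, SE 0.07).

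Of 8 other feedback inhibitors tested, 3 fell and 0 rose after 6 h at 40 °C, and 3 rose and 3 fell at 42.5 °C, where 14.8% of all genes fell and 14.7% rose in the former and 22.3% fell and 20.8% rose in the latter. Spred3, the relative of Spred1 and Spred2, rose by 0.99 at 42.5 °C (adjusted p = 0.0033, SE 0.24) from 15 to 20 counts per library at 37 °C, and Errfi1, an inhibitor of EGF-family receptors, rose by 0.62 (adjusted p = 0.000157, SE 0.10). In the MYC network, Mnt, a repressor that competes with MYC for MAX, fell by 0.85 at 42.5 °C (adjusted p = 5e-06, SE 0.10), and 2 of 11 tested genes fell with 0 rising there. After 6 h at 40 °C, 3 of the 11 rose and 1 fell. Of 15 MYC target genes listed, 8 were found by name and tested, and 1 rose and 5 fell at 42.5 °C, and 0 rose and 2 fell after 6 h at 40 °C, against the same shares of all genes.

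The genes whose levels followed those of Etv5 most closely over the 15 libraries were ranked by Pearson's r of log2 CPM among 9252 genes, as a description of libraries that share 4 treatment groups. The most similar were Ccl7, Rnaseh2a and Hnrnpdl at 0.98 each, and Dhx9, Tatdn1, Pspc1, Herc3 and Parpbp at 0.97 each. Ccl7, a chemokine gene, stood at 5.27 ± 0.425 CPM at 37 °C (SD, n = 3) and 1.79 ± 0.468 CPM after 6 h at 40 °C (n = 4), and Hnrnpdl, an RNA-binding protein gene, at 245 ± 8.76 and 95.6 ± 12.6 CPM. The most opposite were Map3k4, Zfp423 and Calr at -0.97 each and Pdia4 at -0.96, where Calr and Pdia4 encode chaperones of the endoplasmic reticulum. Among the members, r with Etv5 was 0.85 for Etv4, 0.73 for Phlda1, 0.55 for Spred2, 0.54 for Spry1, 0.34 for Myc, 0.15 for Spry4, 0.14 for Spry2 and -0.35 for Spred1. Of the ranked genes, 97.4% had a lower r than Etv4 and 91.7% than Phlda1, but 82.4% than Spred2, 82.0% than Spry1, 71.3% than Myc, 60.3% than Spry4, 59.5% than Spry2 and 29.4% than Spred1. Etv5 was chosen for its lower level in the 40 °C 6 h libraries, and that drop dominates its profile. The r values and ranks therefore reuse the values of the choice, and nothing is read from them about the members. With replicate D added, 5 of the 8 most similar genes stayed among the first 8, and Rnaseh2a fell to rank 457.

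**Figure D4:**
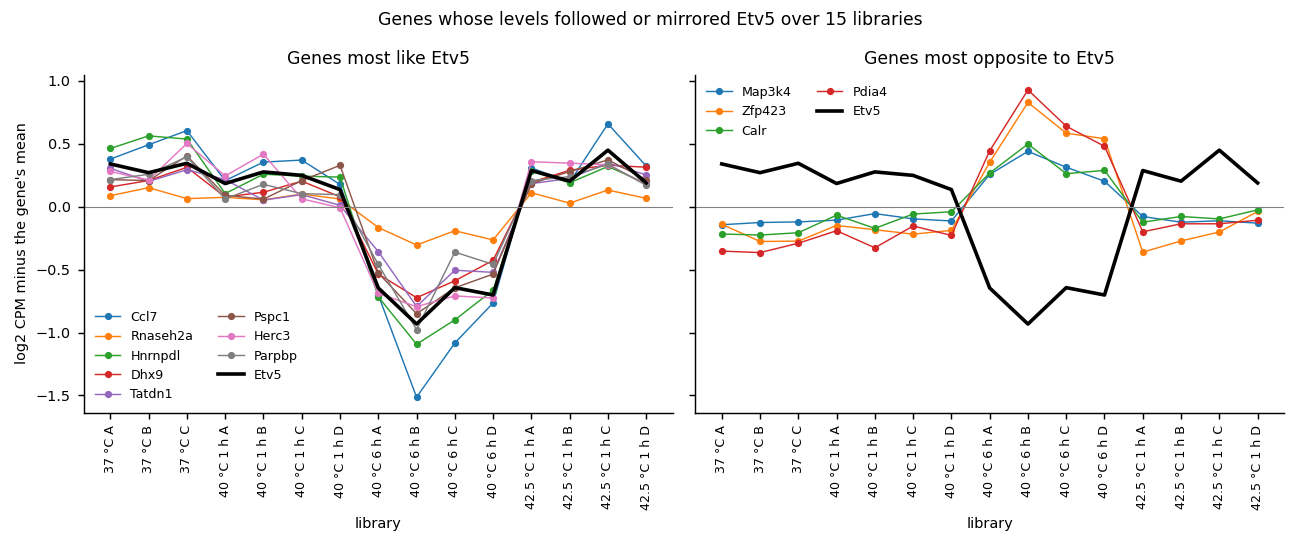
Log2 CPM minus each gene's mean (vertical axis) over the 15 libraries (horizontal axis) for Etv5 (black) and, at left, the 8 genes with the highest and, at right, the 4 with the lowest Pearson's r with it. The similar genes drop in the 40 °C 6 h libraries, where the opposite genes are highest.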

How the data were processed

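Each of 16 CHO cell libraries was sequenced from total RNA. According to the study's methods, reads were trimmed, aligned to the CHOK1GS_HDv1 genome and counted in CLC Genomics Workbench by the authors. The deposited values are raw read counts per gene, not normalized. The annotation release, the strandedness and the counting of multi-mapping reads are not given in the sources used here. Groups were compared in pairs with edgeR 4.0.16 in R 4.3.3, using its quasi-likelihood test, filterByExpr, TMM scaling and Benjamini-Hochberg adjustment over all genes tested. Levels are CPM scaled by TMM. 37 °C replicate D was left out of the main comparisons. A call needs an adjusted p under 0.05, and a stricter rule adds a 1.5-fold limit. Genes named are the 9 members, up to 4 genes per list and comparison with the largest change past both limits, and the 8 genes most like and 4 most opposite to Etv5, with exceptions stated. The members and lists were chosen with earlier results of these data known. Alternatives were DESeq2 1.42.0 size factors and its Wald test, no filter, at least 10 counts in every library, all 4 controls, 1 fit over all groups, a replicate block and each library left out. The scripts' test was checked on simulated data. The study's methods call the replicates biological repeats.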

Additional observations from a re-analysis of the deposited data

Results flagged for a closer look

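Within the 36 groups of 4 libraries examined (9 members in 4 treatments, 37 °C replicate D included), 3 held a library whose gap to the nearest other exceeded Dixon's 95% limit, where chance gives about 1 in 20. Spry2 after 1 h at 40 °C was highest in library B, at 12.3 CPM, with the others at 10.1. Spry2 at 42.5 °C was highest in library B, at 15.6 CPM. Phlda1 after 6 h at 40 °C was highest in library A, at 13.7 CPM, with the others at 11.1 to 11.5 CPM.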

How the results depend on the processing

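Of 676 recomputed fold changes of members, 642 kept their direction and side of the threshold or, where untested, moved by less than the spread between replicates. In 40 °C 1 h against 37 °C, the count of members called went from 0 to 1 with the replicate block (Spred1, 0.17, adjusted p = 0.0156) and ranged from 0 to 1 with each library left out (1 without 40 °C 1 h replicate B, where Spry2 was at -0.41, adjusted p = 0.0362). In 40 °C 6 h against 37 °C the count went from 5 to 2 with all 4 controls, to 1 with the 1.5-fold limit, and to between 3 and 5 with each library left out (3 without 37 °C replicate B). With the 1.5-fold limit the counts were 0 at 42.5 °C against 37 °C, 1 against 40 °C 1 h and 1 against 40 °C 6 h. The other ERK output genes called lower after 6 h numbered 3 in place of 10 with all 4 controls, where 11 of 12 had values below 0, and 7 to 10 with each library left out, alternatives chosen after seeing the data. Calls gained by leaving out 1 library at 42.5 °C were Etv4 against 37 °C (-0.15 without replicate A, adjusted p = 0.0388) and Spred2 against 40 °C 6 h (0.20 without replicate D, adjusted p = 0.00941), and Spry2 in that comparison was called without 40 °C 6 h replicate A (0.33, adjusted p = 0.0259). Over all genes, calls in the comparisons with 37 °C went from 172 to 4, from 3091 to 1122 and from 4510 to 1895 with all 4 controls. For 1 h at 40 °C they were also 634 with the replicate block, 323 without a filter, 107 in 1 fit over all groups and between 63 and 276 with a library left out.

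All values that changed sign belonged to members without a call in that comparison, with log2 values of 0.12 or less in size after the change. In 40 °C 1 h against 37 °C they were, with all 4 controls, Spred2 0.046, Phlda1 0.12 and Myc -0.019, and with the replicate block Spry1 -0.010 and Phlda1 0.070. Leaving out libraries gave Etv4 -0.096 to 0.036, Spry1 -0.041 to 0.26, Spred2 -0.095 to 0.0046, Phlda1 -0.15 to 0.088 and Myc -0.057 to 0.087. In 42.5 °C against 37 °C, all 4 controls gave Etv5 0.037, Spry1 0.039 and Spred2 0.016, and left-out libraries gave Spry1 -0.16 to 0.099. Against 40 °C 1 h left-out libraries gave Spred1 -0.014 to 0.045 and Spred2 -0.089 to 0.053, and against 40 °C 6 h Spred1 -0.053 to 0.0074. The causes were not tested. Libraries of the same letter correlated at a mean r of 0.05 (-0.05 to 0.18) after group means were subtracted, against -0.02 (-0.22 to 0.16) for different letters. With the own letter were 16 of 42 best matches. These values lean slightly towards the own letter and do not settle whether the letters mark pairs. The main tests did not pair the letters, and the replicate block gives the result with them paired. The call of Spred1 was the member call that the replicate block changed. Spry4 could not be compared outside 1 comparison at this depth.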

Other observations

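In 37 °C replicate D, the control library left out of the main comparisons, 6 of the 9 members lay below replicates A, B and C, 1 lay above and 2 lay within their range. The share of all genes in these positions is not given here, so nothing is read from these counts about the members. Phlda1 was at 0.593 times and Spred2 at 0.737 times the mean of the other controls, Etv5 at 0.811 times and Myc at 1.13 times. For Phlda1, the level of 11.2 CPM in replicate D lies within the 11.1 to 13.7 CPM of the 40 °C 6 h libraries, while for Etv5 its 17.4 CPM lies between the 6 h libraries and all other libraries. Why this library differs was not tested.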
